A study of Homo sapiens with 6 samples.

Results

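The genes described here are 33 genes of cholesterol and fatty acid synthesis, chosen as a named list by role. On the sterol side are 24: 7 mevalonate enzymes, 11 later sterol enzymes, and 6 genes of sterol regulation and transport. The other 9 are enzymes of fatty acid synthesis, elongation and desaturation. All 33 were among the 11359 genes of the deposited table and among the 10305 tested. They were measured by RNA sequencing in CAL-62, an established line from a human anaplastic thyroid carcinoma, with 3 libraries from cells that carried an empty vector and 3 from cells that overexpressed FOXK2, a forkhead transcription factor. Both groups were the same line, grown in DMEM with serum and antibiotics, and no other allele or agent is given in the labels. The submitters call the libraries of a group biological replicates, but the sources used here do not give how the cultures were separated, the promoter of the transgene or whether a line was 1 clone. The p-values then reflect the spread among these 6 libraries, which may be technical.

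Cells build cholesterol from acetyl-CoA through mevalonate and squalene, and they build fatty acids from the same acetyl-CoA. Both routes are switched on by SREBP transcription factors, which SCAP escorts to the Golgi for cleavage when sterol is low and which INSIG proteins hold back in the endoplasmic reticulum when sterol is high. In thyroid cancer, as in other tumours, these routes supply membrane lipid and the isoprenoid anchors of signalling proteins.

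FOXK2 itself measured 16.3, 12.5 and 18.8 FPKM in the vector libraries and 30.8, 36.2 and 30.1 FPKM in the FOXK2 libraries. FPKM are fragments counted on a transcript, scaled to its length and to the mapped fragments of the library, here summed over the listed transcripts of a gene. The groups did not overlap, and the difference of 1.00 on the log2(FPKM + 1) scale (SE 0.17, limma adjusted p = 0.00525) went with the labels. The thyroid factor PAX8 was listed at 82.6 to 155 FPKM in all 6 libraries and FOXE1 at under 1 FPKM, while TG, TSHR, NKX2-1 and SLC5A5 were not analysed here. Of 5 epithelial markers tested, 2 fell on the values as deposited (KRT7 and KRT19). After the correction for GC content and length described below, KRT19 alone was called lower, and KRT8 and KRT18 were called higher. The summed level of the epithelial list was 3562 to 4174 FPKM with vector and 2349 to 3533 FPKM with FOXK2. Of 3 mesenchymal markers tested, COL1A1 fell (-0.59, limma adjusted p = 0.0159) and was not called after the correction, while VIM, at 437 to 481 FPKM with vector and 488 to 517 FPKM with FOXK2, was called higher after it and not before. The summed mesenchymal list was at 487 to 517 FPKM with vector and 528 to 550.4 FPKM with FOXK2. Of the immune list, CD68 was at 11.03 to 19.7 FPKM over all 6 libraries and not called (-0.38, limma adjusted p = 0.148), and CD14 averaged under 1 FPKM. The leukocyte, T cell and endothelial markers PTPRC, CD3E, PECAM1 and CDH5 were not analysed here. The part of these marker differences in the results below was not tested.

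With FOXK2, the synthesis genes moved in both directions and not as a block. SCD, which makes monounsaturated fatty acids, went from the eighth highest level of the 33 genes to the highest. HMGCS1, at the entry to the mevalonate route, also rose, and so did the elongases ELOVL5 and ELOVL6, the sterol sensors INSIG1 and INSIG2 and the sterol carrier STARD4, while the sterol reductase TM7SF2 fell to a small part of its level. A gene was called where the limma adjusted p over all genes lay under 0.05. In all, 8 genes rose (SCD, HMGCS1, INSIG2, STARD4, ELOVL6, INSIG1, ELOVL5 and IDI1), 4 fell (TM7SF2, MVD, SCAP and FDFT1) and 21 were not called. The share called was 36.4%, beside 36.3% of all genes tested, with 17.6% of all genes higher and 18.7% lower. The median difference was 0.10 on the log2 scale over the 33 genes and 0.015 over all genes tested. Values of the groups did not overlap for 19 of the 33 genes (11 higher, 8 lower), beside 52.0% of all genes (25.6% higher, 26.4% lower). These are shares near the background, so the results lie in the single genes. In bulk RNA, fewer cells with a transcript and less transcript per cell cannot be told apart.

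**Figure D1:**
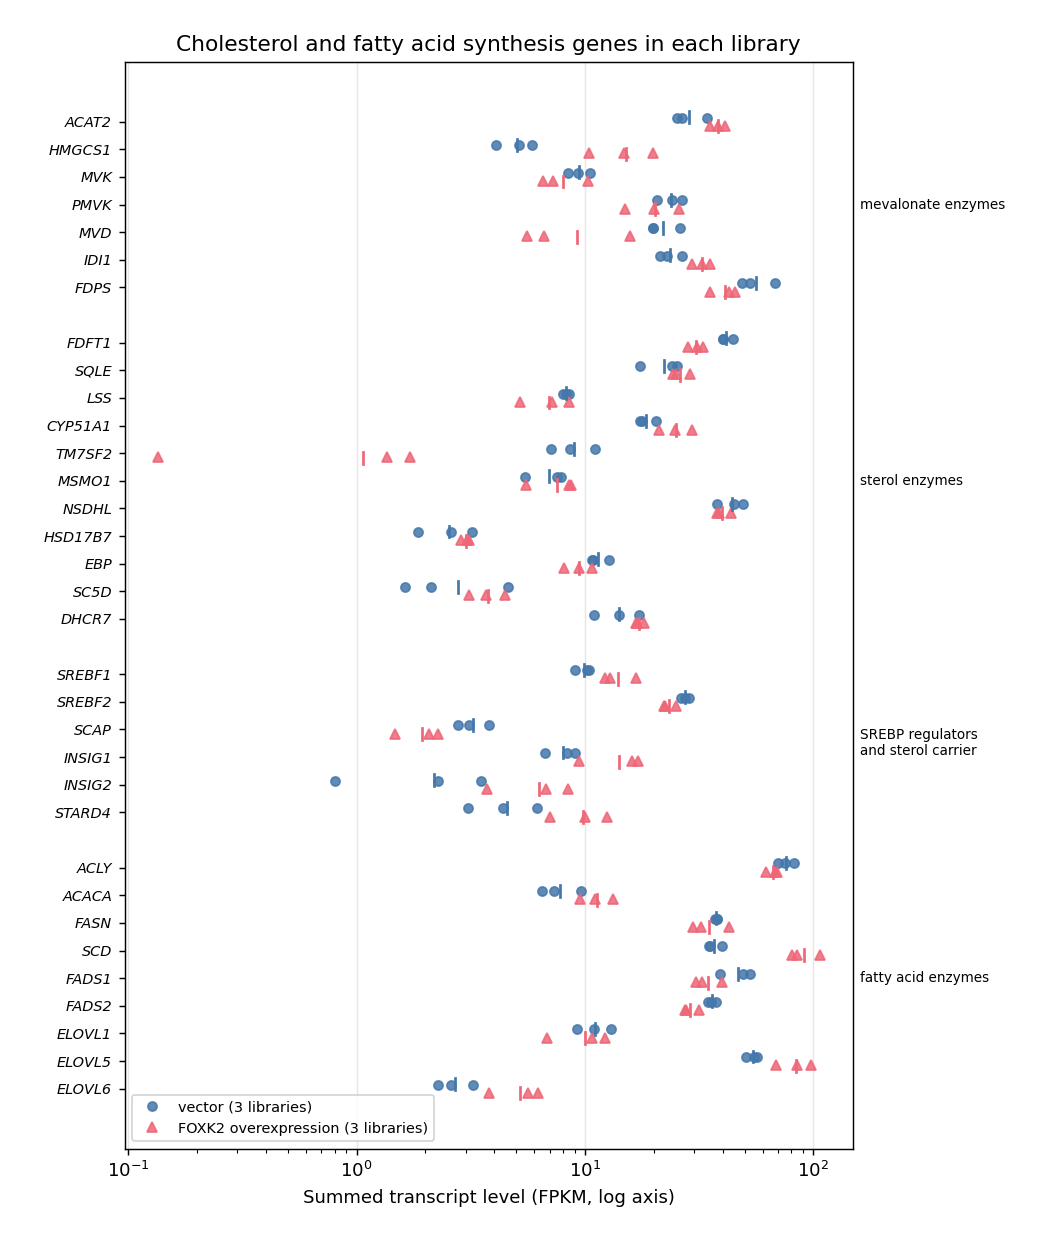
Level of each of the 33 synthesis genes in each library, in FPKM on a log axis; points and triangles are single libraries and short bars are group means (3 libraries each). SCD sits at 34.8 to 39.8 FPKM with vector and 80.7 to 107 FPKM with FOXK2, and TM7SF2 at 7.07 to 11.05 FPKM and 0.135 to 1.71 FPKM.

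The differences also moved with base composition. Over all genes tested, Spearman's rho between the log2 difference and the GC content of a gene's transcripts was -0.59, and over the 33 genes it was -0.67. These are correlations across genes that share the same 6 libraries, given as a description. The median GC content was 41.1% for the 8 genes that rose, 62.3% for the 4 that fell, 53.9% for the others and 49.4% for all genes. Of the 4447 genes with a GC content between those of INSIG2 (36.9%) and INSIG1 (48.1%), the ends of the range of the 8 genes that rose, 29.7% were called higher. In the range of the 4 genes that fell, from FDFT1 (47.7%) to MVD (65.5%), 29.0% of 5418 genes were called lower. Both ranges were taken from the called genes themselves, so these shares have no like share of the 33 genes beside them. The part of GC content in the differences was not tested beyond a correction that takes out, library by library, a smooth curve fitted on GC content and transcript length. After that correction rho over the 33 genes was -0.17, 5 genes were called higher (SCD, SREBF1, DHCR7, STARD4 and ELOVL5) and 3 lower (TM7SF2, FDFT1 and FADS1), beside 30.2% of all genes called, 15.9% higher and 14.3% lower. SCD, STARD4, ELOVL5, TM7SF2 and FDFT1 were called both with and without it, although STARD4 and ELOVL5 then lay at the threshold (adjusted p = 0.0497 and 0.04999).

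**Figure D2:**
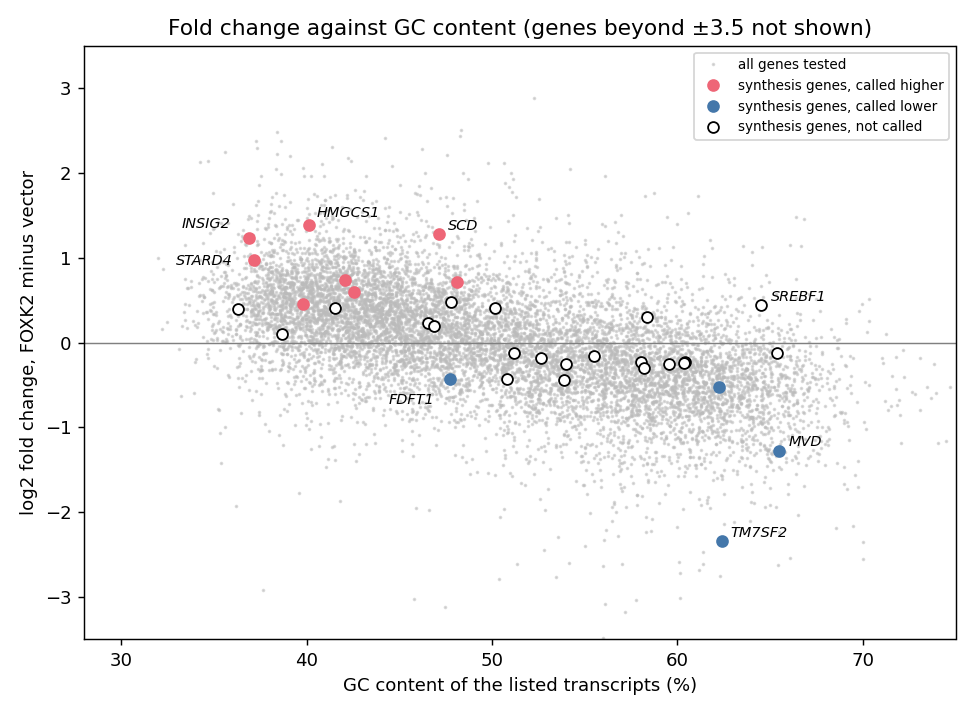
Log2 difference of FOXK2 minus vector against the GC content of a gene's listed transcripts, for all genes tested (grey, those beyond ±3.5 not shown) and for the synthesis genes by call. Differences fall with GC content in both sets (rho -0.59 and -0.67), and TM7SF2 and MVD lie low among GC-rich genes while SCD and HMGCS1 lie high at 47.1% and 40.1%.

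Promoter sequence is shown for the genes the results turn on (HMGCS1, SCD, STARD4 and TM7SF2). It is also shown for SREBF2, whose window holds a sterol regulatory element core, and for ELOVL6, whose window holds the forkhead motif GTAAACA. The sequences are RefSeq, build GRCh38.p14, read from 5′ to 3′ on the gene's strand out of the 250 bases before the RefSeq start. Each stops before the first start, within those bases, of a listed transcript of that gene. Other annotated starts were not looked for. Capitals mark matches on either strand: CCAAT, the box of the factor NF-Y that works beside SREBP (ATTGG on the other strand), TCACCCCAC, a sterol regulatory element core, and GTAAACA, a forkhead motif.
HMGCS1, chr5:43313513-43313662, strand minus: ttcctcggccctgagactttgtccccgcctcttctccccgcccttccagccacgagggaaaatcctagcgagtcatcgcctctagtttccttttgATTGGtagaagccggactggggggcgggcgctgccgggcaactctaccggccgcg
SCD, chr10:100346983-100347123, strand plus: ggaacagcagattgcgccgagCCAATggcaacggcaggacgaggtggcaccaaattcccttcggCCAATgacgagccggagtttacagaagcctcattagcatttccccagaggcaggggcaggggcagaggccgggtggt
STARD4, chr5:111512591-111512785, strand minus: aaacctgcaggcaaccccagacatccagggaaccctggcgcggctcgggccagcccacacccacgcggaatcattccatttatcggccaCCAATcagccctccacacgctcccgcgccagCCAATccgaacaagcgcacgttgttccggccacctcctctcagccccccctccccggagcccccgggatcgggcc
TM7SF2, chr11:65111622-65111871, strand plus: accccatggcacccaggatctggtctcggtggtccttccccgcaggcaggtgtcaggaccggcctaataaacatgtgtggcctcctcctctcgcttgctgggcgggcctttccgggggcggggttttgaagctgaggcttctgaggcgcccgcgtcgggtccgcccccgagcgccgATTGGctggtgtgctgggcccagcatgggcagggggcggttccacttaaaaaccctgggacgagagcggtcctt
SREBF2, chr22:41832855-41833078, strand plus: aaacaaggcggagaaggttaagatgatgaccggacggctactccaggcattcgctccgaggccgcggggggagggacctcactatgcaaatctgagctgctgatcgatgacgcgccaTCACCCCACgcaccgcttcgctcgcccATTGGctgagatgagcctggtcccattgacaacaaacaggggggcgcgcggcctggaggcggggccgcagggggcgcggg
ELOVL6, chr4:110198677-110198865, strand minus: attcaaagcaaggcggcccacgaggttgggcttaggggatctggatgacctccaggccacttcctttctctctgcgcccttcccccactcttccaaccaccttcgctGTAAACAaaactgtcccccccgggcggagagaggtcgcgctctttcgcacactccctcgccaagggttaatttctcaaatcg

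Of the 33 genes, 29 had a promoter window in the RefSeq table. A CCAAT box was found in 19 of the 29 windows, 65.5%, beside 33.0% of 27305 windows of the same length. It was in 15 of 21 windows on the sterol side and 4 of 8 on the fatty acid side, and in 5 of the 8 genes that rose, 2 of the 3 with a window that fell and 12 of the 18 not called. The sterol regulatory element core TCACNCCAC, where N is any base, was in the SREBF2 window alone of the 29, at position -133 from the start, and in 0.875% of all windows, and its fixed form TCACCCCAC was in 0.348% of all windows. The E-box CACGTG was in 4 of the 29 windows, 13.8%, beside 6.49% of all windows. GTAAACA was in the ELOVL6 window alone of the 29, at position -143, and in 2.98% of all windows. Other forms of the forkhead motif and of the sterol regulatory element core were not searched for and are not marked in the sequences. Bases outside the windows were not searched either. The motifs share no bases with each other in the sequences printed, and a match is a description of letters only.

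Of the 7 mevalonate enzymes, 2 rose, 1 fell and 4 were not called. HMGCS1, the synthase that joins acetoacetyl-CoA and acetyl-CoA into HMG-CoA, measured 4.06, 5.14 and 5.85 FPKM with vector and 10.4, 14.9 and 19.8 FPKM with FOXK2. Every FOXK2 library lay above every vector library. The means were 5.01 ± 0.897 and 15.0 ± 4.67 FPKM (SD, n = 3 each), a log2 difference of 1.38 (SE 0.24, limma adjusted p = 0.00522). With the GC correction the difference was 0.92 and the call was lost (limma adjusted p = 0.0587).

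IDI1, the isomerase that makes the isoprene unit reactive, measured 26.6, 22.8 and 21.3 FPKM with vector and 35.4, 29.4 and 32.6 FPKM with FOXK2. The groups did not overlap, and the difference of 0.45 (SE 0.14, limma adjusted p = 0.0384) was 0.066 with the GC correction, where it was not called (limma adjusted p = 0.595). MVD, the decarboxylase that forms that isoprene unit, measured 26.0, 19.8 and 19.9 FPKM with vector and 5.55, 15.7 and 6.58 FPKM with FOXK2. FOXK2 replicate 2 lay much nearer to the vector libraries than the others did. The means were 21.9 ± 3.56 and 9.27 ± 5.57 FPKM (SD, n = 3 each), a log2 difference of -1.28 (SE 0.34, limma adjusted p = 0.0231), and -0.66 with the GC correction (limma adjusted p = 0.0922).

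FDPS, which makes farnesyl diphosphate, the branch point to sterols and to lipid anchors, had the highest level of the mevalonate enzymes. It measured 48.6, 52.5 and 67.8 FPKM with vector and 35.3, 45.4 and 42.6 FPKM with FOXK2, lower without overlap but not called (log2 difference -0.44, SE 0.16, limma adjusted p = 0.0711). ACAT2, the cytosolic thiolase of the entry step, was at 25.2 to 34.1 FPKM with vector and 35.4 to 41.0 FPKM with FOXK2, also without overlap and without a call (0.41, SE 0.15, limma adjusted p = 0.0613). The kinases MVK and PMVK overlapped between the groups, with differences of -0.22 and -0.25, and both had the opposite sign after the GC correction, at 0.24 and 0.31. The summed level of the 7 enzymes was 166, 156 and 184 FPKM with vector and 149.8, 177 and 166 FPKM with FOXK2. The sums overlapped, with genes of this branch on either side of 0.

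**Figure D3:**
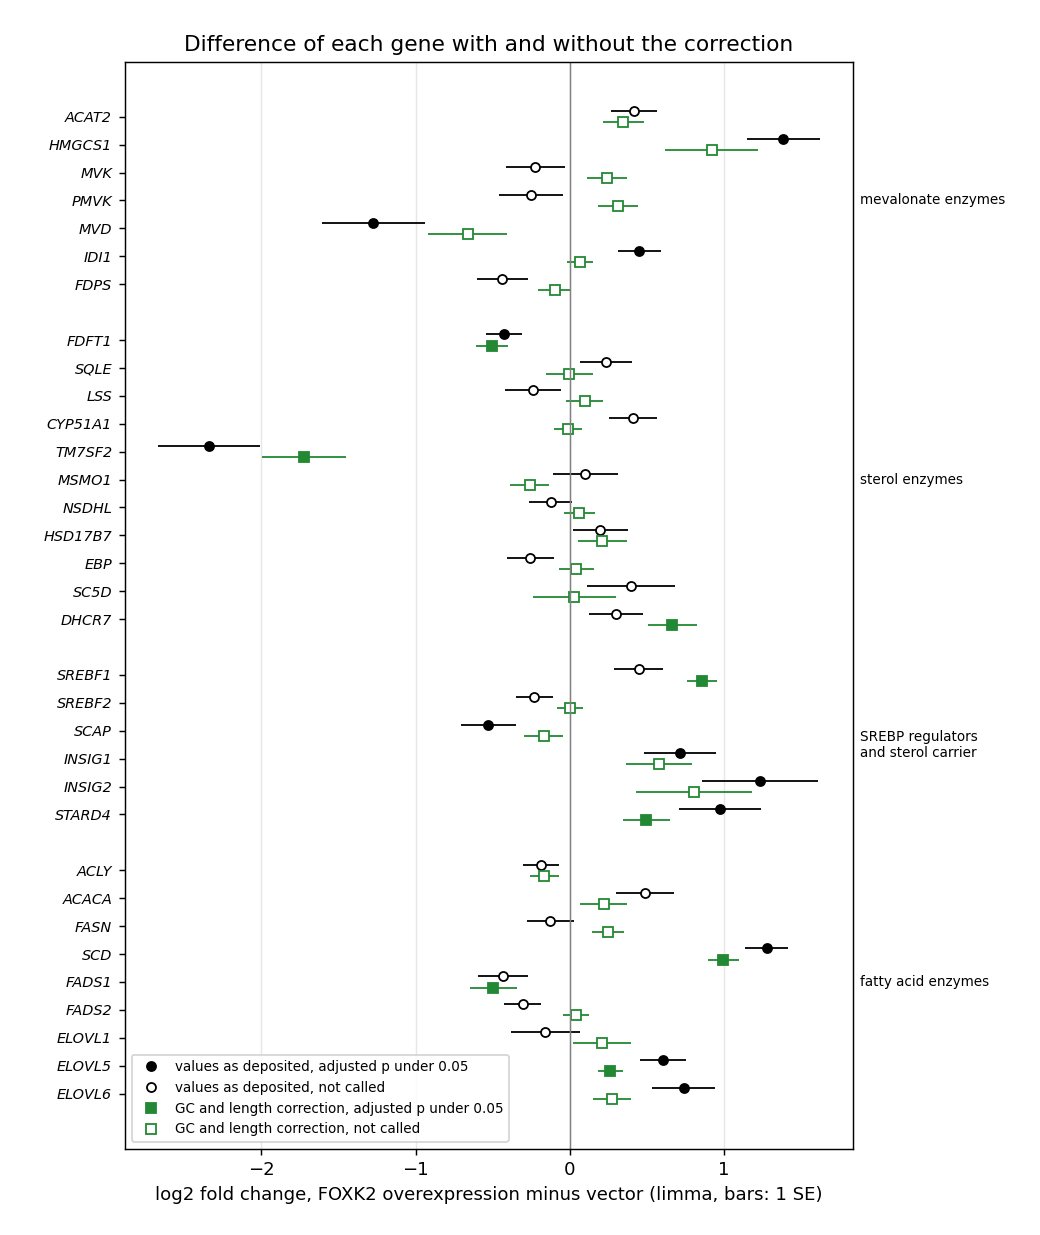
Log2 difference of FOXK2 minus vector for each synthesis gene from limma, with bars of 1 SE, for the values as deposited (circles) and after the GC and length correction (squares); filled symbols have an adjusted p under 0.05. SCD (1.28 and 1.00) and TM7SF2 (-2.34 and -1.72) stay far from 0 in both, IDI1 moves from 0.45 to 0.066, and SREBF1 moves from 0.45 to 0.86.

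Of the 11 enzymes from squalene synthesis on, none rose and 2 fell by limma (at an unadjusted p under 0.05, 1 was higher and 2 were lower). TM7SF2, a sterol reductase that acts after lanosterol is demethylated, measured 11.05, 7.07 and 8.63 FPKM with vector and 0.135, 1.35 and 1.71 FPKM with FOXK2. No FOXK2 library came near the lowest vector library. The means were 8.91 ± 2.00 and 1.06 ± 0.825 FPKM (SD, n = 3 each), a log2 difference of -2.34 (SE 0.33, limma adjusted p = 0.00276), and -1.72 with the GC correction (limma adjusted p = 0.00527). TM7SF2 shares exon sequence on the same strand with VPS51, a subunit of a vesicle tethering complex, which fell from 25.5 ± 1.63 to 11.8 ± 2.50 FPKM (SD, n = 3 each, log2 difference -1.06, limma adjusted p = 0.00379). The sources used here do not say how reads in the shared exons were divided, so the TM7SF2 level is uncertain to that extent.

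FDFT1, squalene synthase, the first enzyme committed to sterols, measured 40.1, 40.2 and 44.2 FPKM with vector and 28.3, 32.7 and 31.0 FPKM with FOXK2. It fell without overlap, by 0.43 on the log2 scale (SE 0.12, limma adjusted p = 0.0281), and its difference after the GC correction was of like size (-0.50, limma adjusted p = 0.0120). FDFT1 and TM7SF2 were the sterol enzymes called lower both with and without the correction. NSDHL, the sterol dehydrogenase with the highest level of this branch, measured 37.7, 44.8 and 49.0 FPKM with vector and 37.9, 43.6 and 38.5 FPKM with FOXK2. The groups overlapped and the difference was -0.12 (SE 0.14, limma adjusted p = 0.497).

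DHCR7, the reductase that makes cholesterol in the last step of one route, measured 17.2, 10.9 and 14.1 FPKM with vector and 16.7, 18.2 and 16.9 FPKM with FOXK2. The groups overlapped through vector replicate 1. The difference of 0.30 (SE 0.17) was not called (limma adjusted p = 0.208) but was called higher after the GC correction, at 0.66 (limma adjusted p = 0.0214). CYP51A1, the lanosterol demethylase just before TM7SF2, lay at 17.5 to 20.5 FPKM with vector and 21.2 to 29.4 FPKM with FOXK2, without overlap and without a call (0.41, limma adjusted p = 0.0727), and was at -0.013 after the GC correction. The remaining 6 enzymes were not called in either fit and their groups overlapped: SQLE, the epoxidase of squalene, at 0.23, LSS, the cyclase that makes lanosterol, at -0.24, MSMO1, the methylsterol oxidase, at 0.10, HSD17B7, a ketosterol reductase, at 0.20, EBP, a sterol isomerase, at -0.26, and SC5D, a sterol desaturase, at 0.40. The summed level of the 11 enzymes was 175 to 186 FPKM with vector and 169 to 173 FPKM with FOXK2.

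The genes of sterol regulation and transport had the highest branch median, 0.58 on the log2 scale, with 3 of 6 higher, 1 lower and 2 not called. INSIG1, which holds SCAP in the endoplasmic reticulum and is itself a target of SREBP, measured 6.67, 8.33 and 9.06 FPKM with vector and 15.99, 9.37 and 16.99 FPKM with FOXK2. FOXK2 replicate 2 lay just above the highest vector library. The difference was 0.71 (SE 0.23, limma adjusted p = 0.0473), and 0.58 with the GC correction, where it was not called (limma adjusted p = 0.0835).

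INSIG2, its paralog, measured 0.805, 3.49 and 2.28 FPKM with vector and 8.43, 3.70 and 6.74 FPKM with FOXK2. Again FOXK2 replicate 2 lay just above the vector range. The difference was 1.23 (SE 0.37, limma adjusted p = 0.0373), and 0.81 with the GC correction, not called (limma adjusted p = 0.149). STARD4, a soluble protein that moves cholesterol between membranes, measured 6.18, 4.36 and 3.07 FPKM with vector and 12.5, 7.04 and 9.98 FPKM with FOXK2. The groups did not overlap, with means of 4.54 ± 1.56 and 9.83 ± 2.72 FPKM (SD, n = 3 each), a difference of 0.97 (SE 0.26, limma adjusted p = 0.0255) and 0.50 after the GC correction (limma adjusted p = 0.0497).

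SCAP, the escort of SREBP, measured 3.78, 2.78 and 3.11 FPKM with vector and 1.47, 2.27 and 2.07 FPKM with FOXK2. It fell without overlap by 0.53 (SE 0.18, limma adjusted p = 0.0498), at the threshold, and was at -0.17 after the GC correction (limma adjusted p = 0.352). SREBF1, which encodes the SREBP that chiefly drives fatty acid genes, measured 10.2, 9.05 and 10.4 FPKM with vector and 12.2, 16.7 and 12.9 FPKM with FOXK2. These values did not overlap, the difference of 0.45 (SE 0.16) was not called (limma adjusted p = 0.0587), and after the GC correction it was 0.86 and called (limma adjusted p = 0.00162). SREBF2, which encodes the SREBP that chiefly drives sterol genes, measured 26.3, 27.3 and 28.5 FPKM with vector and 22.1, 25.1 and 22.5 FPKM with FOXK2. It was lower without overlap but not called (-0.23, SE 0.12, limma adjusted p = 0.163), and its difference after the GC correction was 0.000198.

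Of the 9 fatty acid enzymes, 3 rose and none fell by limma (at an unadjusted p under 0.05, 4 were higher and 2 lower). SCD, the stearoyl-CoA desaturase that makes oleate from stearate, measured 34.8, 39.8 and 35.3 FPKM with vector and 107, 84.9 and 80.7 FPKM with FOXK2. The lowest FOXK2 library was far above the highest vector library. The means were 36.7 ± 2.71 and 90.7 ± 13.9 FPKM (SD, n = 3 each), a log2 difference of 1.28 (SE 0.14, limma adjusted p = 0.00114), and 1.00 with the GC correction (limma adjusted p = 0.00113). Its adjusted p stayed between 3.05e-05 and 0.0106 under all alternatives run.

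ELOVL5, which elongates polyunsaturated chains, measured 56.8, 54.9 and 50.9 FPKM with vector and 97.5, 68.7 and 84.4 FPKM with FOXK2. It went from the third to the second highest level of the 33 genes, with a difference of 0.60 (SE 0.15, limma adjusted p = 0.0188), and 0.26 after the GC correction (limma adjusted p = 0.04999). ELOVL6, which elongates palmitate to the stearate that SCD uses, measured 2.58, 3.22 and 2.26 FPKM with vector and 6.23, 3.78 and 5.62 FPKM with FOXK2. Its groups did not overlap, with a difference of 0.74 (SE 0.20, limma adjusted p = 0.0266), and 0.28 after the GC correction, not called (limma adjusted p = 0.135).

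ACLY, which supplies cytosolic acetyl-CoA to both routes, had the highest mean of the fatty acid enzymes. It measured 70.0, 74.8 and 82.2 FPKM with vector and 69.2, 67.6 and 62.2 FPKM with FOXK2, lower by a narrow margin without overlap and not called (-0.19, SE 0.12, limma adjusted p = 0.238). FASN, the fatty acid synthase, was at 37.2 to 37.9 FPKM with vector and 29.7 to 42.5 FPKM with FOXK2, with a difference of -0.13 (limma adjusted p = 0.537). ACACA, the acetyl-CoA carboxylase before FASN, was at 6.50 to 9.61 and 9.47 to 13.3 FPKM, with a difference of 0.48 that was not called (limma adjusted p = 0.0778).

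The desaturases of polyunsaturated chains lay on the other side of 0 from SCD. FADS1 measured 38.8, 52.7 and 49.0 FPKM with vector and 32.6, 30.8 and 39.8 FPKM with FOXK2. The groups overlapped, and the difference of -0.43 (SE 0.16) was not called (limma adjusted p = 0.0694) but was called lower after the GC correction, at -0.50 (limma adjusted p = 0.0471). FADS2 was at 34.6 to 37.3 FPKM with vector and 27.3 to 31.7 FPKM with FOXK2, without overlap and without a call (-0.31, limma adjusted p = 0.0804), and at 0.041 after the correction. FADS2 shares exon sequence with FEN1 on the same strand, and FEN1 rose from 63.1 ± 4.76 to 106 ± 5.64 FPKM (SD, n = 3 each, log2 difference 0.74, limma adjusted p = 0.00359), so the FADS2 level is uncertain. ELOVL1, which elongates saturated very long chains, overlapped (-0.16, limma adjusted p = 0.599).

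The summed level of the 9 fatty acid enzymes was 296, 318 and 311 FPKM with vector and 390, 353 and 352 FPKM with FOXK2. Without SCD the sums were 261, 278 and 275 FPKM with vector and 283, 268 and 272 FPKM with FOXK2. The groups did not overlap with SCD and overlapped without it. The branch median was -0.13 on the log2 scale, and 0.22 after the GC correction.

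Single libraries weighed on many of these calls. Among the FOXK2 libraries, replicate 2 lay closest to the mean of the vector group for 6 of the 8 genes that rose and 3 of the 4 that fell. The same count over all called genes was not made for this library. With that library left out, 15 of the 33 genes were called (10 higher, 5 lower) beside 46.3% of all genes (23.0% higher, 23.2% lower), and CYP51A1 (limma adjusted p = 0.0244), ACAT2 (0.0489) and FADS2 (0.0323) were among them. Without vector replicate 1, 2 or 3, the calls were 7, 6 and 4 of the 33, beside 25.1%, 22.2% and 19.6% of all genes. Without FOXK2 replicate 1 or 3 they were 4 and 3, beside 22.8% and 18.9%. HMGCS1, SCD and TM7SF2 kept their calls without each of the 6 libraries, 3 of the 12 called genes, beside 45.1% of all called genes.

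The other 9 calls were each lost without some libraries. ELOVL5 lost its call without vector replicate 2 or 3 or FOXK2 replicate 3 (limma adjusted p from 0.0545 to 0.0662). STARD4 lost it without vector replicate 2 or 3 or FOXK2 replicate 1 or 3 (0.0633 to 0.0795), and IDI1 without the same 4 (0.0975 to 0.124). MVD lost it without vector replicate 1 or 3 or FOXK2 replicate 1 or 3 (limma adjusted p from 0.0572 to 0.0750), and so did ELOVL6 (0.0694 to 0.0888) and INSIG2 (0.0795 to 0.115). FDFT1 (limma adjusted p from 0.0640 to 0.0992), INSIG1 (0.0798 to 0.149) and SCAP (0.0757 to 0.141) were called only with all 6 libraries or without FOXK2 replicate 2. ACAT2 was also called without vector replicate 3 (limma adjusted p = 0.0425), and FADS1 without vector replicate 1 (0.0488).

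At the level of transcripts, 109 were listed for the 33 genes, 75 were tested, 3 rose and 1 fell, beside 7.39% of all transcripts tested (3.03% higher, 4.36% lower). Both listed HMGCS1 transcripts rose. ENST00000433297 measured 1.90, 2.51 and 2.88 FPKM with vector and 5.21, 8.39 and 10.2 FPKM with FOXK2 (log2 difference 1.35, SE 0.27, limma adjusted p = 0.0397). ENST00000325110 measured 2.16, 2.63 and 2.96 FPKM with vector and 5.23, 6.49 and 9.57 FPKM with FOXK2 (1.15, SE 0.24, limma adjusted p = 0.0456). The gene's rise was shared about equally by its listed transcripts.

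SCD had the single listed transcript ENST00000370355, so its gene and transcript values are the same, and it was called at this level too (limma adjusted p = 0.0126). The most abundant TM7SF2 transcript, ENST00000279263, measured 4.64, 3.80 and 4.51 FPKM with vector and 0.113, 1.26 and 0.917 FPKM with FOXK2 (-1.65, SE 0.30, limma adjusted p = 0.0336). Of its other 5 listed transcripts, none reached the minimum mean for testing. The most abundant ELOVL5 transcript, ENST00000304434, was at 20.6 to 39.2 FPKM with vector and 55.7 to 73.8 FPKM with FOXK2 and was not called (1.05, limma adjusted p = 0.0663), and the most abundant MVD transcript, ENST00000301012, at 16.0 to 23.5 and 3.48 to 13.9 FPKM, was not called either (-1.41, limma adjusted p = 0.119). No gene had transcripts called in opposite directions.

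**Figure D4:**
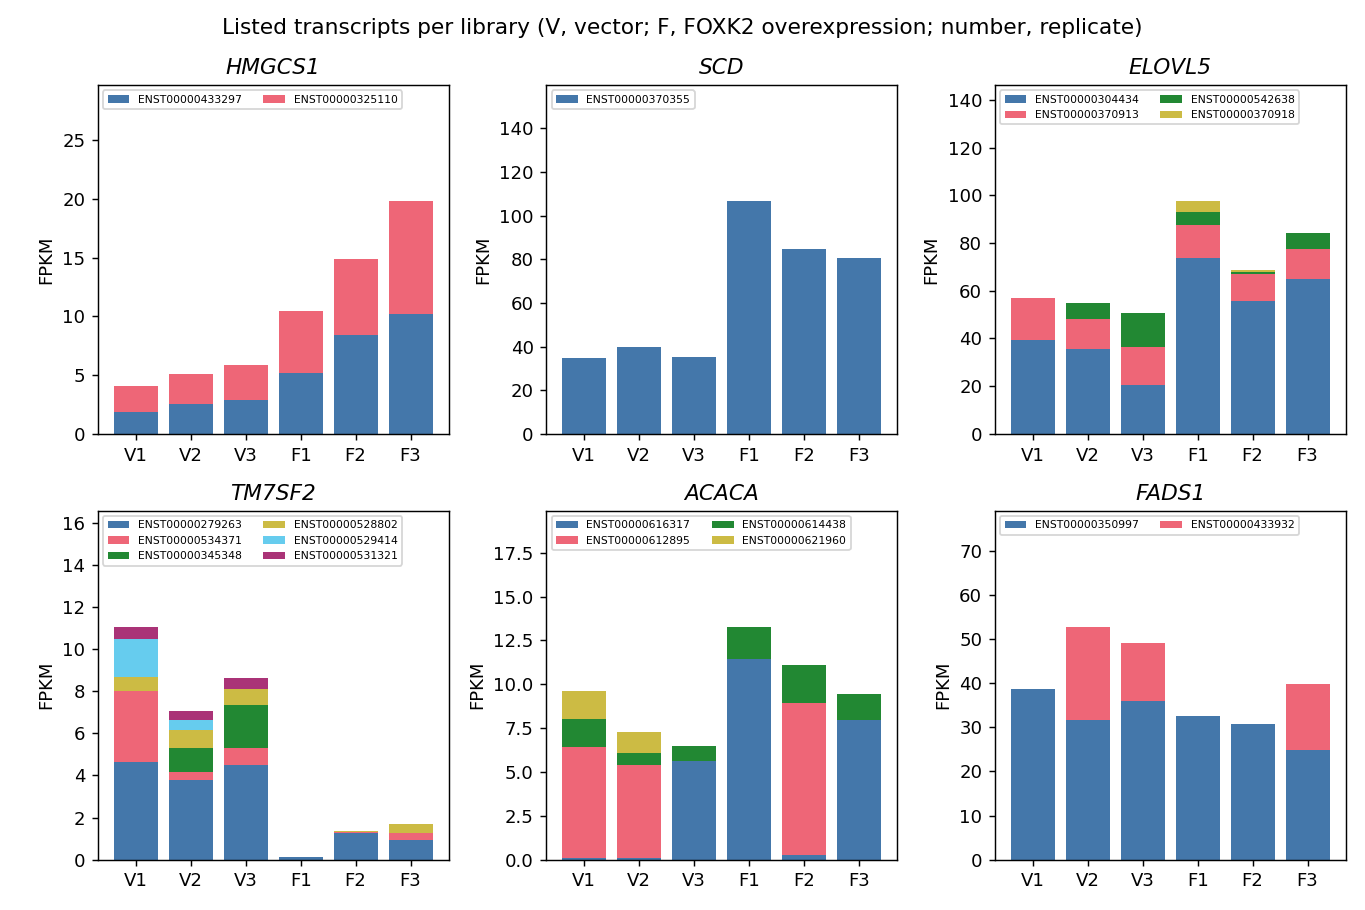
Stacked levels of the listed transcripts of 6 synthesis genes in each library, in FPKM, with V for vector and F for FOXK2 and the replicate number. Both HMGCS1 transcripts rise together, SCD has a single listed transcript, and in ACACA and FADS1 the listed transcripts change places between libraries of the same group.

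Around the synthesis genes, 6 lists chosen by role held 94 tested genes, of which 28, or 29.8%, were called, beside 36.3% of all genes. By list the share called was 15.4% for SREBP processing and turnover, 33.3% for other isoprenoid branches, 43.8% for sterol uptake, storage and efflux, 23.8% for fatty acid activation and elongation, 45.0% for glycerolipid synthesis and 8.33% for fatty acid oxidation, and differences between lists were not tested. Of 13 genes of SREBP processing and turnover, 2 rose and none fell by limma (at an unadjusted p under 0.05, 2 were higher and 1 lower): SEC24A, a coat protein of the vesicles that leave the endoplasmic reticulum, went from 3.67 ± 0.757 to 7.92 ± 1.85 FPKM (SD, n = 3 each, log2 difference 0.92, limma adjusted p = 0.0137), and its paralog SEC24B from 4.03 ± 0.678 to 6.95 ± 0.748 FPKM (0.66, limma adjusted p = 0.0183). MBTPS1, the protease that makes the first cut in SREBP, was not called (-0.47, limma adjusted p = 0.0586). The list's median was 0.16 on the log2 scale, and -0.088 after the GC correction.

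Of 12 genes tested on the other isoprenoid branches, 3 rose and 1 fell. PDSS1 and PDSS2, the pair of subunits that build the side chain of coenzyme Q, rose from 8.60 ± 0.801 to 15.2 ± 1.27 FPKM (0.76, limma adjusted p = 0.0068) and from 5.40 ± 0.933 to 8.63 ± 0.116 FPKM (0.60, limma adjusted p = 0.0231; SD, n = 3 each). NUS1, a subunit of the dolichol-making enzyme, also rose (0.57, limma adjusted p = 0.0481), and RABGGTA, a subunit of the enzyme that puts isoprenoid anchors on Rab proteins, fell (-0.81, limma adjusted p = 0.0283).

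Of 16 genes of sterol uptake, storage and efflux, 3 rose and 4 fell, with a median of -0.21. NR1H3, the oxysterol receptor LXR alpha, fell from 5.34 ± 0.582 to 1.41 ± 0.363 FPKM (SD, n = 3 each, log2 difference -1.40, limma adjusted p = 0.00162). Its more abundant paralog NR1H2 also fell, from 51.7 ± 8.06 to 26.0 ± 11.4 FPKM (-1.03, limma adjusted p = 0.0236). The NR1H2 call was lost with the GC correction (limma adjusted p = 0.145). It was also lost without vector replicate 2 or 3 or FOXK2 replicate 1 or 3 (limma adjusted p up to 0.0793). TMEM97, the sigma-2 receptor that binds the lysosomal cholesterol exporter NPC1, rose from 4.80 ± 0.221 to 10.8 ± 1.33 FPKM (1.02, limma adjusted p = 0.0028). NPC2, which hands cholesterol to NPC1, rose from 116 ± 16.4 to 172 ± 0.947 FPKM (0.57, limma adjusted p = 0.0134). MYLIP, a ubiquitin ligase that removes lipoprotein receptors, rose at a low level from 1.18 ± 0.444 to 2.80 ± 0.506 FPKM (0.81, limma adjusted p = 0.0176).

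Of 21 genes tested for fatty acid activation and as partners of elongation, 3 rose and 2 fell, with a median of 0.028. ELOVL2, which elongates the same polyunsaturated chains beyond ELOVL5, rose from 0.561 ± 0.0725 to 2.56 ± 0.365 FPKM (SD, n = 3 each, log2 difference 1.19, limma adjusted p = 0.0019). HACD2, a dehydratase of the elongation cycle, rose from 9.28 ± 1.30 to 19.1 ± 2.61 FPKM (0.96, limma adjusted p = 0.00519). Its more abundant paralog HACD3, at means of 69.0 FPKM with vector and 73.2 FPKM with FOXK2, was not called (0.076, limma adjusted p = 0.669). HACD1 went from 30.6 ± 3.00 to 21.9 ± 4.97 FPKM, without overlap and without a call (-0.48, limma adjusted p = 0.0643). SCD5, the paralog of SCD, rose from 1.94 ± 0.563 to 3.97 ± 0.467 FPKM (0.77, limma adjusted p = 0.0181). ACSS2, which makes acetyl-CoA from acetate, fell from 9.51 ± 0.669 to 5.17 ± 0.376 FPKM (-0.77, limma adjusted p = 0.00646).

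The list for glycerolipid synthesis also holds PNPLA2, a lipase. Of its 20 genes tested, 5 rose and 4 fell, PNPLA2 among the latter, with a median of -0.27. Among the acyltransferases of the first step, GPAT3 rose from 1.17 ± 0.121 to 3.77 ± 0.353 FPKM (SD, n = 3 each, 1.13, limma adjusted p = 0.00193). GPAM rose from 2.42 ± 0.624 to 5.45 ± 1.02 FPKM (SD, n = 3 each, 0.92, limma adjusted p = 0.0113). The more abundant GPAT4, at means of 22.1 FPKM with vector and 21.1 FPKM with FOXK2, was not called (-0.061, limma adjusted p = 0.698). PNPLA2, the lipase that starts triglyceride breakdown, fell from 55.0 ± 1.02 to 22.5 ± 4.59 FPKM (SD, n = 3 each, -1.27, limma adjusted p = 0.00162). LPIN3, a phosphatidate phosphatase, fell from 6.84 ± 0.597 to 3.15 ± 0.0442 FPKM (-0.92, limma adjusted p = 0.00353). Its paralog LPIN1 rose from 8.63 ± 0.840 to 15.5 ± 3.65 FPKM (0.76, limma adjusted p = 0.0185). That call was lost without vector replicate 1 or 3 or FOXK2 replicate 3 (limma adjusted p up to 0.0590).

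Of 12 genes tested for fatty acid oxidation, none rose and 1 fell by limma (at an unadjusted p under 0.05, none was higher and 2 were lower). CPT1A, which admits fatty acids to the mitochondrion, fell from 21.4 ± 0.411 to 9.38 ± 1.56 FPKM (SD, n = 3 each, log2 difference -1.12, limma adjusted p = 0.00207). ACADVL, the first dehydrogenase of the cycle for long chains, was not called (-0.49, limma adjusted p = 0.0577), nor were HADHB (-0.31, limma adjusted p = 0.139) and HADHA (-0.20, limma adjusted p = 0.171), the subunits of the trifunctional protein. Of the 28 genes called over the 6 lists, 18 (64.3%) were called the same way after the GC correction, beside 56.5% of all called genes. Of the 28, 12 (42.9%) stayed called without each library in turn, beside 45.1% of all called genes, and these 12 were also called after the correction: SEC24A, PDSS1, NR1H3, TMEM97, ACSS2, HACD2, ELOVL2, GPAM, GPAT3, LPIN3, PNPLA2 and CPT1A. The calls of SEC24B (limma adjusted p up to 0.0649), PDSS2 (0.0741), NUS1 (0.143), RABGGTA (0.0927), MYLIP (0.0576) and SCD5 (0.0678) were lost without vector replicate 3 and at least 1 other library, and that of NPC2 (0.0523) without FOXK2 replicate 3. With the GC correction, SEC24B (limma adjusted p = 0.137), PDSS2 (0.269), NUS1 (0.674) and RABGGTA (0.166) were not called, and MBTPS1 (0.0445) and HADHA (0.0426) were called lower.

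**Figure D5:**
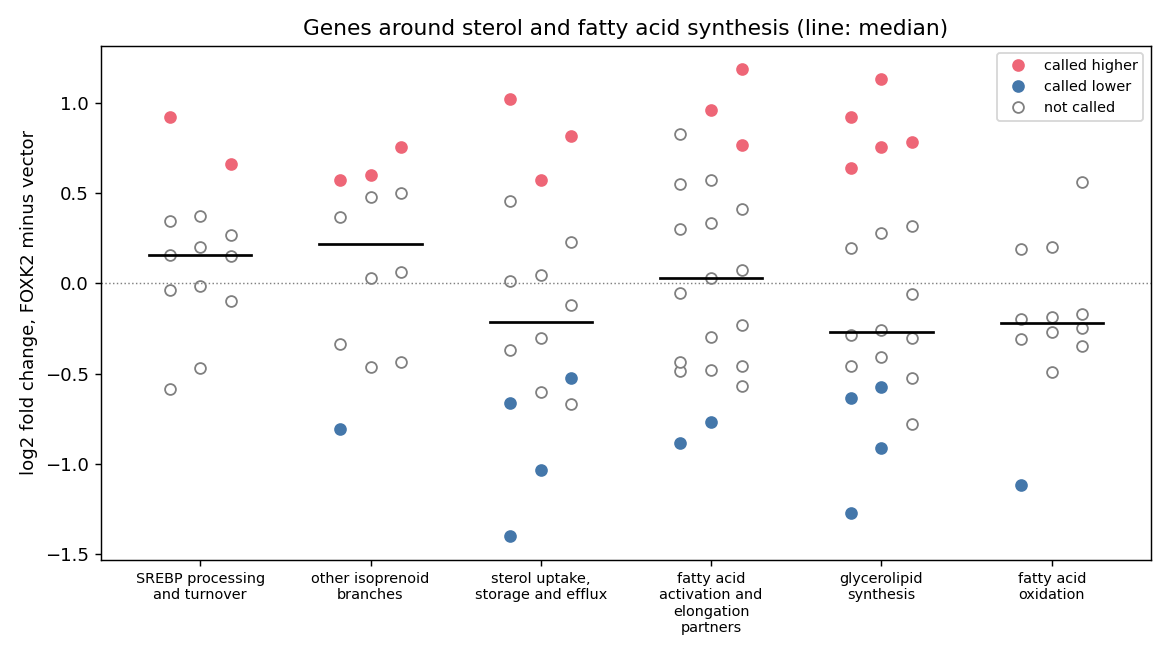
Log2 difference of FOXK2 minus vector for the tested genes of 6 lists around sterol and fatty acid synthesis, by list, with filled symbols for adjusted p under 0.05 and a line at each list's median. NR1H3 (-1.40), PNPLA2 (-1.27) and CPT1A (-1.12) lie lowest in their lists and ELOVL2 (1.19), GPAT3 (1.13) and TMEM97 (1.02) highest.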

How the data were processed

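RNA from 3 vector and 3 FOXK2 libraries of CAL-62 was made into stranded libraries, per the labels' protocols. Cutadapt, HISAT2 2.1.0 and StringTie on build hg19 are named in the submitters' processing notes; the sources used here give neither their settings nor whether reads were assigned by strand. The authors deposited values per transcript, taken here as FPKM because the notes name StringTie; the table states no unit of its own. Without read counts the depth is unknown and intervals for counting error cannot be had. Summed FPKM per library was 370457, 376120 and 395782 with vector and 335151, 363133 and 347308 with FOXK2. Every FOXK2 library lay below every vector library, and the main fit and the summed levels of branches used no scaling between libraries. All 31009 listed transcripts had a group mean of at least 0.5, so lower ones were not analysed here. GENCODE 29 is on another build and gave names, GC content and length only. It matched 30893 transcripts, summed to 11359 genes, and left 116 out (0.211% of the signal). Genes with pseudogene copies (FDPS, CYP51A1, HSD17B7, SCD, FADS2) or exons that overlap a listed gene (ACAT2 with TCP1 and SOD2, MVK with MMAB, SREBF1 with RAI1, FADS1 with FADS2, and those named above) are uncertain.

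Genes averaging 1 FPKM or more over the 6 libraries were tested on log2(FPKM + 1) with limma 3.58.1 in R 4.3.3 (group term, intensity trend, two-sided, Benjamini-Hochberg over 10305 genes), and transcripts likewise. Fold changes on this scale understate the change of low genes. The script was tested on simulated data. The correction for GC content and length used natural splines with 4 degrees of freedom. Members, lists and alternatives were chosen with earlier results of these data known. All 33 genes are named, with each library's value for those called with or without the correction and the most abundant of each branch. Up to 4 genes of smallest p are named per other list, with paralogs of some named genes. Some genes of these pathways are not reported here. The alternatives tried were a pseudocount of 0.1 or 0.5, no filter or a minimum of 5 FPKM, quantile or median ratio scaling, no trend, array weights, a replicate block, each library left out, and the most abundant transcript.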

Additional observations from a re-analysis of the deposited data

How the results depend on the processing

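Of the 12 calls, those of SCD and TM7SF2 held under every alternative run (17 for TM7SF2, which lies under the 5 FPKM minimum), and HMGCS1 lost its call with the GC and length correction alone. Pseudocounts of 0.1 and 0.5, quantile and median ratio scaling and no intensity trend left the counts of called genes within 1.5 times. The sterol side (5 higher, 4 lower) gave 10 and 8 with array weights, 2 and 2 with the replicate block, 3 and 2 with the GC correction, 4 and 2 with block and correction together, 1 and 1 with the most abundant transcript, and 2 lower with the 5 FPKM minimum. With 1 library left out it gave 1 to 7 higher and 1 to 4 lower. The fatty acid side (3 higher, 0 lower) gave 4 lower with array weights, 1 lower with the GC correction, 1 higher with block and correction, and 1 to 3 higher and 0 to 1 lower with 1 library left out. The transcripts (3 higher, 1 lower) gave 5 and 4 with array weights, 0 and 0 with the replicate block or with block and correction, 1 higher with the GC correction, 1 higher without a filter, 0 lower with a pseudocount of 0.1 or the 5 FPKM minimum, and 0 to 2 higher and 0 to 3 lower with 1 library left out. Array weights called 69.1% of all genes. The sign turned, with and without the block, under the GC correction for CYP51A1 (-0.013), EBP (0.043), ELOVL1 (0.21), FADS2 (0.041), FASN (0.25), LSS (0.10), MSMO1 (-0.26), MVK (0.24), NSDHL (0.062), PMVK (0.31), SQLE (-0.00302) and SREBF2 (0.000198), none of them called in either fit. It also turned for ELOVL1 with its most abundant transcript (0.27) and without FOXK2 replicate 1 (range with 1 library left out -0.31 to 0.066), for MSMO1 without vector replicate 3 (range -0.045 to 0.29) and for SC5D with array weights (-0.071). The causes were not tested. Libraries with the same number did not deviate together (correlations of 0.13, -0.17 and -0.06 for numbers 1 to 3), so the numbers were not taken to pair the libraries; the replicate block called 2982 of all genes and ended the calls of ELOVL6, FDFT1, IDI1, INSIG1, INSIG2 and SCAP (adjusted p from 0.0531 to 0.101).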

Other observations

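The listed transcripts of ACACA changed places between libraries of the same group. ENST00000616317 was at 0.107, 0.103 and 5.62 FPKM with vector and 11.4, 0.269 and 7.95 FPKM with FOXK2, while ENST00000612895 was at 6.33 and 5.31 FPKM and listed at 0 with vector, and was listed at 0, at 8.67 and at 0.0268 FPKM with FOXK2. In FADS1, ENST00000433932 was at 0.00941, 21.1 and 13.1 FPKM with vector and was listed at 0 in FOXK2 replicates 1 and 2 and at 14.9 FPKM in replicate 3. The gene sums of ACACA and FADS1 rest on such listings. Neither was called on the values as deposited, and FADS1 was called lower after the GC correction. Called genes held such listings too. In ELOVL5, ENST00000542638 was at 0.000723, 6.67 and 14.4 FPKM with vector. In FDFT1, ENST00000615631 was at 6.02 and 11.1 FPKM in vector replicates 1 and 3 and was listed at 0 in vector replicate 2.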
